A study of Drosophila melanogaster with 47 samples.

Results

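Binding of the nuclear receptor Hr78 was mapped in Drosophila melanogaster larvae by chromatin immunoprecipitation and sequencing (ChIP-seq), which recovers and reads the DNA bound by a tagged or native protein. The 2 immunoprecipitated replicates came from the line Hr78-GFP at the stage labelled W3L, were made with an anti-GFP antibody, and are set against 1 input sample of the same line and stage. Their members are all 1288 peaks of the single list that the labels name for both replicates, out of 12745 peaks in the 16 lists of the series. A peak is a stretch of the genome that the authors called as bound, with a summit where the signal was highest. The labels give no promoter, copy number or insertion site of the tagged gene, and do not say whether the replicates came from separate animals.

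The other 15 lists come from the same series. Hr78-GFP was also precipitated from embryos of the stage labelled E8-16, and anti-GFP was used for Notch, AbdB and Lola (line LolaI-GFP) at W3L and for Stat92E at E0-12. The remaining 10 lists were made with antibodies against the regulators themselves, in Kc167 cells (Su(H), insv, h, dm), S2 cells (CG8478), embryos (Cmi in the line Exd-GFP and br, both E0-8, and prd with antibodies RF12 and RF13, E0-12) and adult females (cnc). Each of the 6 anti-GFP lists has an input of its own line and stage in the labels. Read depth per sample is unknown, and 1 list per group leaves no value per replicate, so no spread between replicates can be given. Intervals on shares are 95% Clopper-Pearson intervals and hold counting error alone.

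Hr78, also called DHR78, is an orphan nuclear receptor: it has the zinc-finger DNA-binding domain of the hormone receptors but no established hormone. It is related to the vertebrate testicular receptors TR2 and TR4. In flies it is known for its requirement in larval growth and in the response to the steroid ecdysone at the onset of metamorphosis, when ecdysone receptor and its partner ultraspiracle switch on a cascade of regulators. DHR78 can bind sequences that the ecdysone receptor also binds.

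Larval Hr78 peaks varied in width and score, and their median width lay within the range of the other lists, 158 bp in Lola to 411.5 bp in Cmi. Of the 1288 peaks, 1249 lay on the arms X, 2L, 2R, 3L, 3R and 4, and these entered the comparisons. Their width had a median of 328 bp, with a lower quartile of 188 bp and an upper quartile of 524 bp, and the extremes were 66 and 1988 bp. The authors' fold enrichment, a linear ratio over background, had a median of 2.86, a range of 2.02 to 5.28 and quartiles of 2.65 and 3.28. The authors' score of a peak, its −log10 p, had a median of 7.22 and a range of 5.33 to 22.9. Fold and score ranked the peaks almost alike (Spearman rho 0.96 across 1249 peaks, a description), so they are 2 views of 1 measure. Width was less closely tied to score (rho 0.47). The summit lay in the middle of the peak, between 25 and 75% of its length, in 915 peaks (73.3%, 70.7 to 75.7).

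The 10 best-scoring peaks were all shared with the embryonic Hr78 list and with Notch. The highest score, 22.9 with a fold of 5.28, belonged to chr4:335265-335614 (build dm3 here and throughout). Its summit lay 11 bp from that of embryonic Hr78 and 10 bp from that of Notch, and AbdB and Stat92E also had peaks there. A neighbouring peak at chr4:334397-334815 scored 21.4 and was shared with embryonic Hr78, Notch and Lola. The second place went to chr2R:1492230-1492544, with a score of 22.4 and a fold of 5.04. Its summit stood 3 bp from the embryonic Hr78 summit and 2 bp from the Notch summit, which ranked 2 in the Notch list.

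The other 7 of these peaks lay at chr2L:18703052-18703624, chr2R:7779342-7779626, chr4:1047561-1047949, chr3L:18752101-18752796, chr4:64264-64948, chr2R:1585013-1585410 and chrX:11031394-11032153. Their scores lay between 20.6 and 22.1, and their summits stood 0 to 38 bp from an embryonic Hr78 summit. All 7 overlapped Notch, at 1 to 69 bp between summits. Only chr3L:18752101-18752796 among the 10 also held CG8478, Cmi, Su(H) and insv. The 3 highest folds beyond these were found at chrX:19531053-19532332 (4.88), chr2R:1148092-1148443 (4.80) and chr4:1081477-1082243 (4.80), again all with embryonic Hr78 and Notch.

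The anti-GFP lists had the highest shares at larval Hr78 peaks relative to the rest of the series. Each peak was compared with the other lists at an overlap of at least 1 bp. As a background, the peaks of the remaining 14 lists were compared with the same partner. Those peaks come from lists of very different width and antibody, so the background is a description and not a chance level.

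Among the anti-GFP lists, Notch, the receptor whose cleaved intracellular domain acts in the nucleus, overlapped 1055 of 1249 larval Hr78 peaks (84.5%, 82.3 to 86.4), beside 39.6% of the peaks of the remaining lists. Embryonic Hr78 was found at 503 (40.3%, 37.5 to 43.1), beside 15.3%. AbdB, a Hox protein of the posterior abdomen, was found at 465 (37.2%, 34.5 to 40.0), beside 17.8%. Lola, a zinc finger protein of axon guidance, was found at 118 (9.45%, 7.88 to 11.2), beside 4.74%. Stat92E, the transcription factor of the JAK-STAT pathway, was found at 98 (7.85%, 6.42 to 9.48), beside 3.93%. In all 5 the share at larval Hr78 was above that background, and the ratio of the shares lay between 2.00 for Lola and Stat92E and 2.64 for embryonic Hr78.

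The lists made with other antibodies stood closer to their background. CG8478, an uncharacterised regulator, overlapped 369 larval Hr78 peaks (29.5%, 27.0 to 32.2), beside 21.3% of the peaks of the remaining lists. Cmi, part of a complex that methylates histones at enhancers, overlapped 314 (25.1%, 22.8 to 27.6), beside 21.7%. Su(H), the DNA-binding partner of Notch, overlapped 302 (24.2%, 21.8 to 26.7), beside 22.8%, so its interval included the background. In the top-scoring 50% of every list, which holds fewer peaks by construction, Cmi was found at 15.9% and Su(H) at 14.9%. The ecdysone-responsive zinc finger protein br was found at 58 peaks (4.64%, 3.54 to 5.96), beside 3.11%. The corepressor insv was found at 44 (3.52%), beside 4.08%, and the repressor h at 43 (3.44%), beside 3.33%. The pair-rule protein prd was found at 41 peaks with RF12 (3.28%), beside 2.49%, and at 10 with RF13 (0.801%), beside 1.26%. The Nrf2 relative cnc was found at 27 peaks (2.16%), beside 2.75%, and the Myc protein dm at 5 (0.400%), beside 0.726%.

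Read from the other side, the share of a whole list that a larval Hr78 peak covered separated the antibodies. It was 71.9% for embryonic Hr78, 63.2% for AbdB, 55.1% for Stat92E, 39.5% for Notch and 38.6% for Lola. Among the other antibodies the highest share was 27.9% for CG8478, followed by h with 20.6% and insv with 19.4%, and the lowest was 5.31% for cnc. The mean was 53.7% ± 14.6 over the anti-GFP lists (SD, n = 5 lists) and 15.2% ± 6.82 over the others (SD, n = 10 lists), and the classes did not overlap. The difference was 38.5 percentage points (exact permutation of the antibody labels over 15 lists, 3003 arrangements, two-sided p = 0.000333, the smallest they can give; adjusted p = 0.000666 over 2 label tests). By stage label, the mean was 47.1% ± 13.9 over the larval lists (SD, n = 3 lists) and 23.2% ± 20.1 over the others (SD, n = 12 lists), a difference of 23.9 points that missed the threshold of 0.05 (exact permutation, two-sided p = 0.0615, adjusted p = 0.0615). All larval lists are anti-GFP, so this test over 15 lists cannot tell stage from antibody. Within the anti-GFP lists the 3 larval ones averaged 47.1% and the 2 embryonic ones 63.5%, in a design of 10 arrangements that cannot go below p = 0.1 (exact permutation, p = 0.3). Antibody, tagged line and regulator cannot be told apart here, and the lists differ in length. The share also varied with score inside a list, when each was split by its own score into 4 classes. For Notch it was 81.0% in the best-scoring class and 10.6% in the lowest, and for CG8478 45.2% and 12.9%. The best-scoring class of CG8478 thus stood above the whole Notch and Lola lists. Only h (22.6% and 23.1%) and prd RF12 (6.90% and 13.8%) had the lower share in the best-scoring class. The lists are not fully independent: the 4 from Kc167 cells have 1 Kc167 input in the labels, the 2 of prd are of 1 regulator, and embryonic Hr78 comes from the line of the larval list. The antibody pattern was also known from earlier results of these data, and the adjustment does not cover that choice. The p therefore describes these lists only and gives the pattern no independent support.

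**Figure D1:**
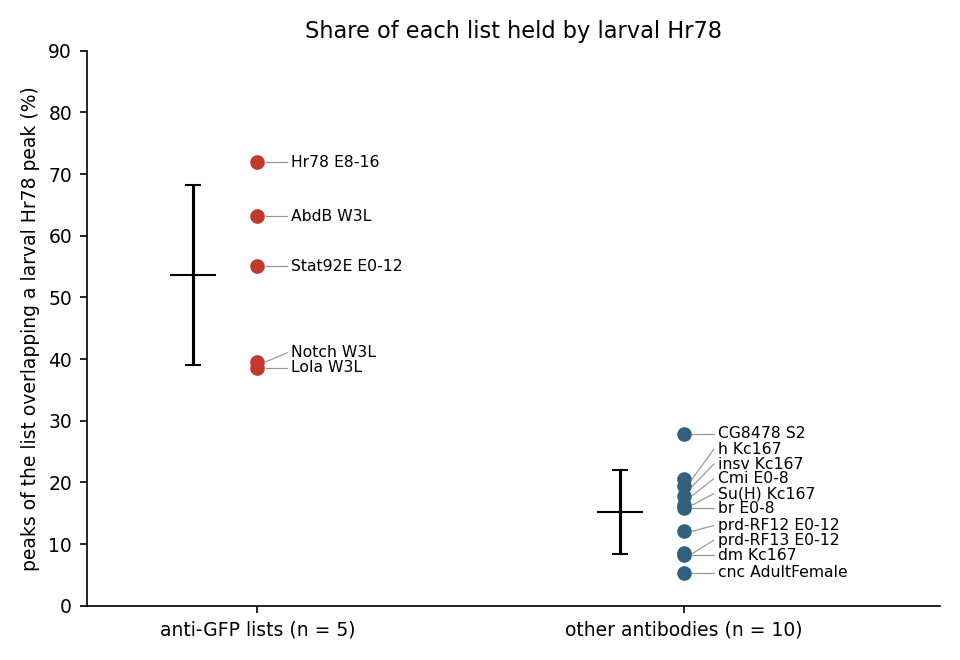
Share of the peaks of each list that overlap a larval Hr78 peak (%, points, 1 per list), for the 5 other anti-GFP lists and the 10 lists made with other antibodies; black bars give the mean and SD over lists. The anti-GFP lists sit between 38.6 and 71.9%, all above the others, which reach 27.9% with CG8478.

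Within the larval Hr78 list, sharing with anti-GFP lists followed the score. The smaller list of h was also more frequent in the top class, but with peaks set to 400 bp its intervals overlapped. Of the 3 largest lists of other antibodies, Su(H) and Cmi were not more frequent at the best-scoring peaks than at the lowest-scoring ones. CG8478 was somewhat more frequent at the best-scoring peaks. The larval Hr78 list was split by score into 4 classes of 312 or 313 peaks, the top class with scores from 9.78 up and the bottom class with scores up to 6.19. Embryonic Hr78 was found at 81.8% of the top class (77.1 to 85.9) and at 14.1% of the bottom class (10.4 to 18.5). Stat92E was found at 22.7% of the top class (18.2 to 27.7) and 2.24% of the bottom class (0.907 to 4.57). Lola was found at 23.0% (18.5 to 28.1) and 3.53% (1.77 to 6.22), AbdB at 56.9% (51.2 to 62.4) and 20.2% (15.9 to 25.1), and Notch at 98.1% (95.9 to 99.3) and 68.3% (62.8 to 73.4). For all 5 the intervals of the top and the bottom class did not overlap.

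For Stat92E and Lola nearly all of the difference lay between the top class and the next. The second class held Stat92E at 3.85% and Lola at 6.41%, close to the values of the third, 2.56% and 4.81%. Embryonic Hr78, AbdB and Notch stepped down through every class.

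Su(H), by contrast, was found at 18.2% of the top class (14.1 to 22.9) and 22.8% of the bottom class (18.2 to 27.8). Cmi was found at 21.7% (17.3 to 26.7) and 24.4% (19.7 to 29.5), and CG8478 at 32.6% (27.4 to 38.1) and 25.3% (20.6 to 30.5). The intervals of the top and the bottom class overlapped in all 3, which does not show equal shares. Su(H) was more frequent in the classes between them, at 26.9% (22.1 to 32.2) and then 28.8% (23.9 to 34.2) as the score fell. For Su(H) the interval at 28.8% did not overlap that of the top class, so its share did vary with score. Cmi stood at 28.8% and 25.6% in the same classes, with intervals that overlapped that of its top class. CG8478 stood at 30.1% in both the second and the third class. The list of h was found at 7.03% of the top class (4.46 to 10.4) and 1.92% of the bottom class (0.709 to 4.14), intervals that did not overlap. Of the 43 peaks with h, 18 lay within 2 Mb of a centromere-side arm end and 8 on arm 4. Both places made up more of the top class than of the bottom class, and their part in this difference was not tested. At least 1 list of another antibody overlapped 51.1% of the top class (45.4 to 56.8) and 48.7% of the bottom class (43.0 to 54.4). At least 2 of the 5 other anti-GFP lists overlapped 92.7% of the top class and 27.6% of the bottom class. Peaks of the top class were also wider, with a median width of 500 bp against 196 bp in the bottom class. With every peak set to 400 bp around its summit, embryonic Hr78 was found at 81.8% of the top class and 15.4% of the bottom class. At that width Notch was found at 94.9% and 64.1%, AbdB at 56.5% and 22.4%, Stat92E at 23.3% and 2.24%, and Lola at 20.8% and 3.85%. For h the values were 7.35% (4.71 to 10.8) and 2.88% (1.33 to 5.41), with intervals that overlapped.

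**Figure D2:**
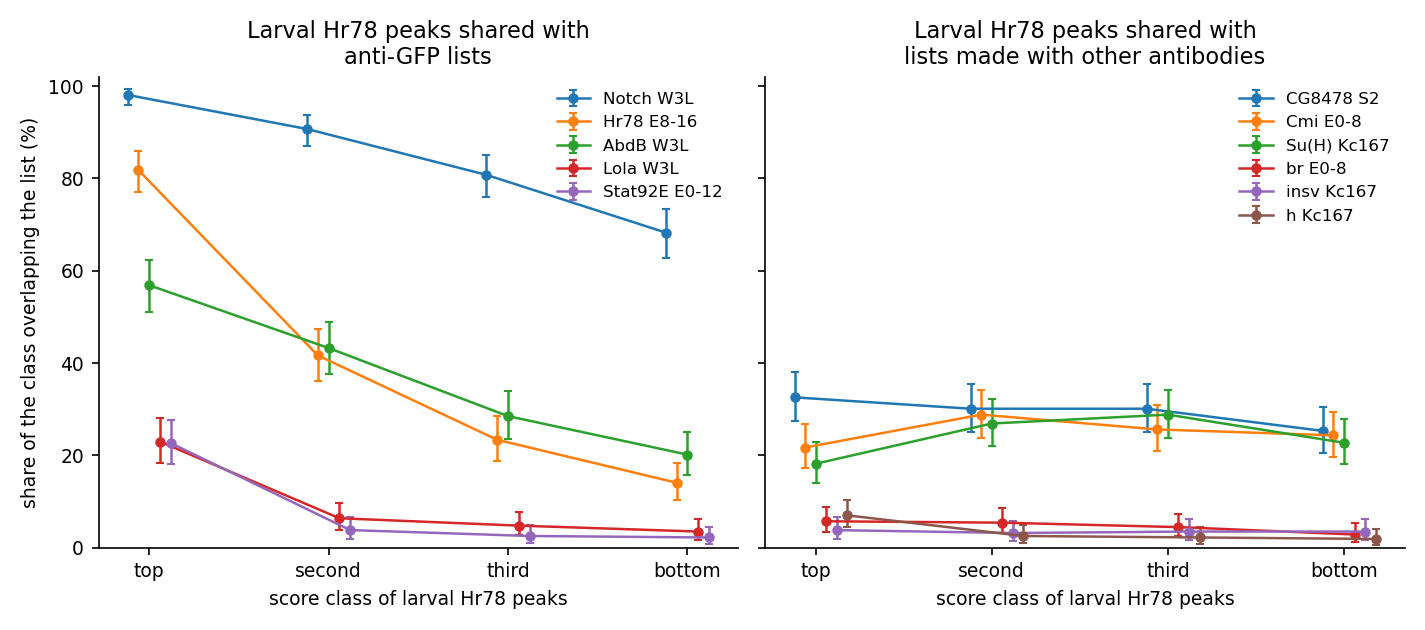
Share of larval Hr78 peaks that overlap each list (%, with 95% Clopper-Pearson intervals) in 4 classes of the larval list by score, for the 5 other anti-GFP lists (left) and, of the other antibodies, the 5 most frequent lists and h (right). Embryonic Hr78 goes with the score, at 81.8% of the top class against 14.1% of the bottom class, while Su(H) stands at 18.2% and 22.8%.

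The scores of shared peaks were related to a different degree in different lists. Across the 503 larval peaks shared with embryonic Hr78, larval score and the score of the embryonic peak had a Spearman rho of 0.55, and across the 1055 shared with Notch it was 0.57. It was 0.32 with AbdB (465 peaks), 0.23 with Lola (118) and 0.20 with Stat92E (98). With CG8478 it was 0.21 (369 peaks), with Su(H) 0.04 (302) and with Cmi 0.01 (314). In the smaller lists it was 0.29 with prd RF12 (41 peaks), 0.03 with h (43), -0.13 with insv (44), -0.17 with cnc (27) and -0.18 with br (58). These are descriptions across peaks of 1 list, which share library and depth. The 100 best peaks of larval Hr78 and the 100 best of embryonic Hr78 shared 58 peaks, and 98 of the larval best had a peak anywhere in the embryonic list.

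Summits of larval Hr78 lay closest to those of Hr78 in embryos. In overlapping peaks the median distance between summits was 21 bp (quartiles 5 and 61 bp) for embryonic Hr78 and 35 bp (6 and 107 bp) for Notch. It was 49.5 bp for Stat92E, 56 bp for AbdB and 64.5 bp for Lola. For CG8478 it was 81 bp, for Cmi 98 bp, for Su(H) 109 bp (36 and 226 bp) and for br 181 bp. The repressor h, at 28 bp over 43 peaks, and prd RF12, at 53 bp over 41, stood among the anti-GFP lists. Summits within 100 bp were found in 84.7% of the pairs with embryonic Hr78 (81.2 to 87.7), 73.4% with Notch (70.6 to 76.0), 51.9% with Cmi (46.2 to 57.6) and 47.0% with Su(H) (41.3 to 52.8). In the top-scoring 50% of every list the median was 13 bp for embryonic Hr78, 19 bp for Notch, 44 bp for AbdB and 37 bp for insv, against 107.5 bp for insv in the full lists. Wider partner peaks allow longer distances, and this was not corrected for.

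**Figure D3:**
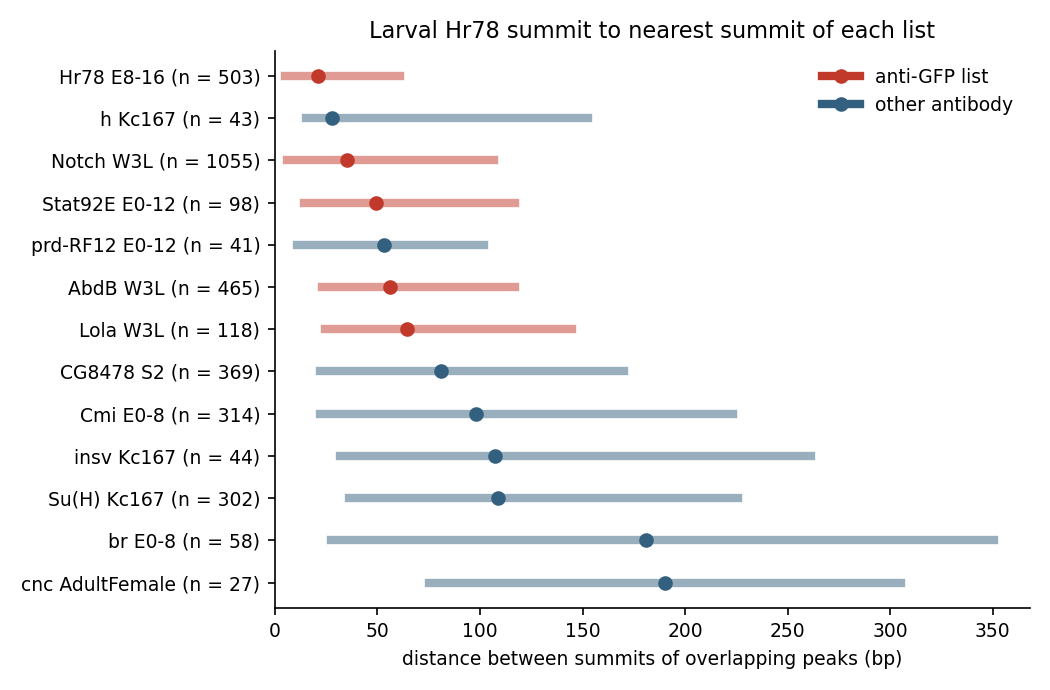
Distance in bp from the larval Hr78 summit to the nearest summit among overlapping peaks, for the lists that share at least 25 peaks; dots are medians, bars run between the quartiles, and n is the number of larval peaks shared. Embryonic Hr78 has the shortest median, 21 bp, and the lists of insv, Su(H), br and cnc lie beyond 100 bp.

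The number of other regulators at a larval Hr78 peak varied from 0 to 8. At least 1 of the 13 other regulators was found at 1147 peaks (91.8%), where 63.2% of the peaks of the other lists held a regulator other than their own, larval Hr78 included. At least 3 were found at 524 (42.0%, 39.2 to 44.7), beside 26.4% of the peaks of the other lists, and at least 5 at 117 (9.37%, 7.81 to 11.1), beside 7.3%. In that background a peak cannot count its own regulator, so the 2448 Notch peaks cannot meet Notch, the longest list, as larval Hr78 peaks can. The median larval Hr78 peak held 2. Larval Hr78 peaks with no other regulator had a median width of 178.5 bp and a median score of 6.01, those with 3 had 396.5 bp and 7.75, and those with 6 had 632.5 bp and 10.3. At an overlap of at least 1 bp a wider peak can meet more lists, and this was not corrected for. The 3 peaks with the most regulators were chrX:12629148-12630227 with 8, and chr3L:18752101-18752796 and chrX:16110842-16111898 with 7 each. All 3 held Notch, AbdB, embryonic Hr78, CG8478, Cmi and Su(H).

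**Figure D4:**
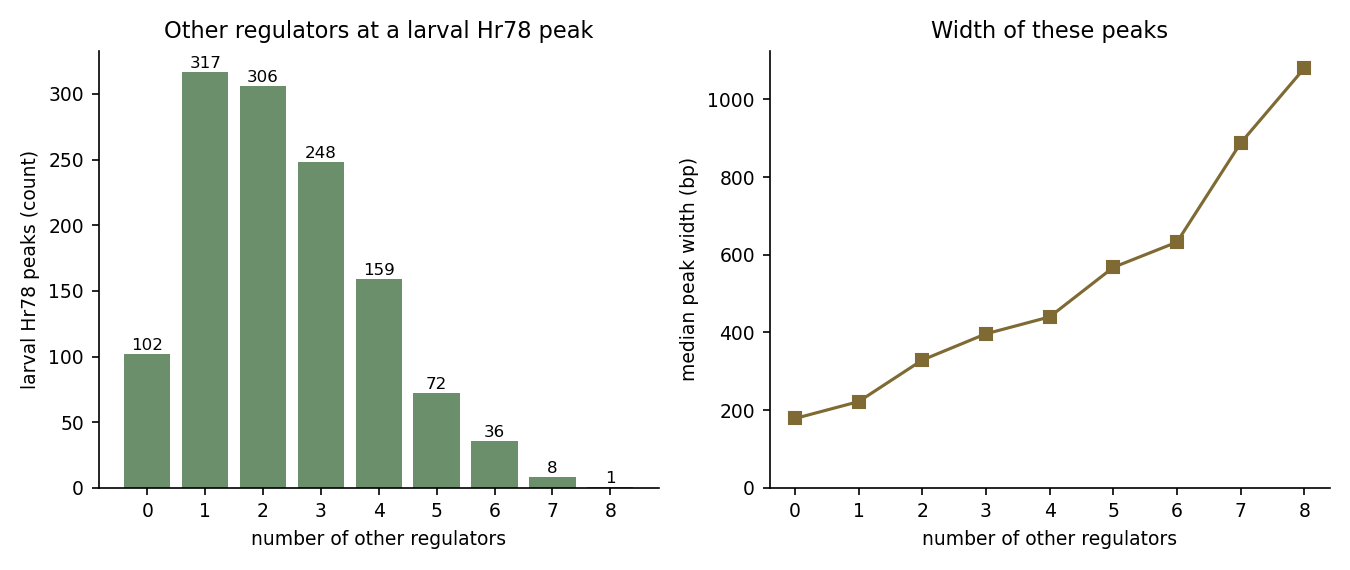
Number of larval Hr78 peaks by the number of other regulators with an overlapping peak (left, bars) and the median width in bp of those peaks (right, squares). Counts are highest at 1 and 2 other regulators (317 and 306 peaks), and the median width runs from 178.5 bp with none to 1080 bp for the single peak with 8.

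Combinations of the anti-GFP lists sorted the peaks further. Notch alone of these lists was found at 346 larval Hr78 peaks, whose median score was 6.51. Notch with AbdB was found at 200 (median score 7.27), Notch with embryonic Hr78 at 185 (8.71), and all 3 at 140 (9.78). The 44 peaks with these 3 and Stat92E but not Lola had a median score of 11.4. In 19 peaks all 5 other anti-GFP lists were present. Their median fold was 4.24, their median width was 729 bp, and 18 of the 19 were in the top class, while 7 held a list of another antibody.

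Among the 4 largest combinations with Notch, Su(H) and CG8478 were least frequent at the peaks with Notch and embryonic Hr78 only. Su(H) was found at 35.5% of the peaks with Notch and AbdB only (28.9 to 42.6) and at 10.8% of those with Notch and embryonic Hr78 only (6.73 to 16.2). CG8478 was found at 41.5% and 16.2% of the same classes. Peaks with Notch, AbdB and embryonic Hr78 held Su(H) at 31.4% (23.9 to 39.8) and CG8478 at 47.9%. Those with Notch alone held Su(H) at 27.2% (22.5 to 32.2), which overlaps the interval of Notch with AbdB, and CG8478 at 28.6%. The AbdB classes were also wider, at a median of 387 bp for Notch with AbdB against 279 bp for Notch with embryonic Hr78. Peaks with Notch alone had 260 bp. Of the peaks with Notch and embryonic Hr78 only, 15.7% lay within 2 Mb of a centromere-side arm end. This was 7.0% for Notch with AbdB, 5.0% for all 3 and 6.07% for Notch alone. Su(H) and CG8478 were less frequent near those ends, as given below. The part of width or place in these differences was not tested.

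A smaller set of larval Hr78 peaks lay outside the anti-GFP lists. No other list overlapped 85 peaks (6.81%, 5.47 to 8.35), beside 36.7% of the peaks of the other lists. They had a median width of 167 bp, a fold of 2.65 and a score of 5.91, and 51 of them fell in the bottom class and 1 in the top class. That one, chr3L:19090785-19090914, had a score of 11.0 and a fold of 3.54. The next best were chrX:17738916-17739194 (8.82), chr2R:7921346-7921626 (8.44), chrX:15693395-15693612 (7.73) and chr2L:11052114-11052400 (7.73).

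Another 69 peaks (5.52%, 4.32 to 6.94) overlapped lists of other antibodies only. They had a median score of 6.19 and none was in the top class. Su(H) was present at 53.6% of them (41.2 to 65.7), CG8478 at 49.3% and Cmi at 47.8%, shares that the choice of these peaks raises. At the 596 peaks with lists of both kinds they were 44.5%, 56.2% and 47.1% in the same order. The best of them was chr3L:16403510-16403853, with a score of 9.56 and both Cmi and Su(H). It was followed by chr2L:480391-481564 (9.28; CG8478, Cmi and Su(H)) and chrX:12650335-12650816 (8.82; CG8478 and Su(H)). Then came chr2L:19134900-19135219 (8.26; Cmi) and chr3L:11106243-11106988 (7.75; cnc).

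Larval peaks without an embryonic counterpart were mostly weak, with exceptions. The 746 such peaks had a median score of 6.60 and a median fold of 2.74, and the 503 shared ones 9.96 and 3.28. Of the top class, 57 peaks had no embryonic peak. The best of these was chr3R:16609302-16610558, with a score of 18.0 and a fold of 4.50, shared with Notch, AbdB, Lola and Su(H). It was followed by chr2L:5291847-5293430, chr3R:14022686-14023118, chrX:9552033-9552934 and chr2L:1644425-1644783, with scores of 12.8 to 15.8. All 5 held AbdB and Notch, and the last 4 also held CG8478. At chr2L:1644425-1644783 the Hr78 and Notch summits were the same base, and the Notch peak ranked 16 in its list. A missing embryonic peak can also lie below the threshold of that list.

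A larger share of larval Hr78 peaks than of the other lists pooled lay on arm 4 and near the centromere-side ends, while some single lists had larger shares. Arm 4, a small chromosome rich in repeats and heterochromatin marks, held 45 peaks (3.60%, 2.64 to 4.79), beside 1.56% of the peaks of the other lists. This came to 36.9 peaks per Mb of the span covered by any list, against 8.64 on 3R and 12.3 on X. Arm 4 peaks had a median score of 11.8 and a fold of 3.62, while the medians of the other arms lay between 6.94 and 7.61 for score. Of the 45, 31 were in the top class, 42 held Notch (93.3%, 81.7 to 98.6), 36 held embryonic Hr78 (80.0%, 65.4 to 90.4), and 4 held AbdB (8.89%, 2.48 to 21.2). None held Su(H), which allows a share of up to 6.67% by a limit of 3 counts and up to 7.87% by the Clopper-Pearson interval. In the other anti-GFP lists arm 4 held 5.96% of embryonic Hr78, 4.75% of Lola, 3.74% of Stat92E, 2.61% of Notch and 0.693% of AbdB peaks. It held 0.595% of Cmi, 0.525% of CG8478 and 0.298% of Su(H) peaks, so these lists had few peaks there to share.

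On the 5 long arms, 116 peaks (9.29%, 7.73 to 11.0) lay within 2 Mb of the centromere-side end, counted from the outermost peak of any list, beside 6.03% of the peaks of the other lists. The share was higher in Stat92E (19.3%), h (13.9%), embryonic Hr78 (12.4%) and Lola (12.0%), and lower in Notch (6.86%) and AbdB (6.79%). It was also lower in Cmi (3.75%), Su(H) (3.67%) and CG8478 (3.53%), which bears on their overlaps below. The 116 made up 15.3% of the top class (11.5 to 19.8) and 5.77% of the bottom class (3.45 to 8.96). Their partners differed from those of the 1088 other peaks of these arms. Embryonic Hr78 was found at 64.7% (55.2 to 73.3) against 36.0% (33.2 to 39.0), Stat92E at 26.7% (18.9 to 35.7) against 5.61% (4.32 to 7.14) and Notch at 97.4% (92.6 to 99.5) against 82.7% (80.3 to 84.9). CG8478 was found at 12.9% (7.42 to 20.4) against 32.4% (29.7 to 35.3), Su(H) at 10.3% (5.46 to 17.4) against 26.7% (24.0 to 29.4) and Cmi at 7.76% (3.61 to 14.2) against 27.9% (25.3 to 30.7). AbdB stood at 33.6% and 38.8%, with overlapping intervals. In the first Mb embryonic Hr78 was found at 76.8% of 56 peaks and CG8478 at 7.14%. For embryonic Hr78 the difference between score classes was present elsewhere too. Without arm 4 and these 2 Mb, it was found at 78.2% of the top class and 13.7% of the bottom class. Stat92E was then found at 18.8% of the top class (14.0 to 24.4), against 22.7% with them. The bottom class of Stat92E and the other lists were not computed in this setting.

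**Figure D5:**
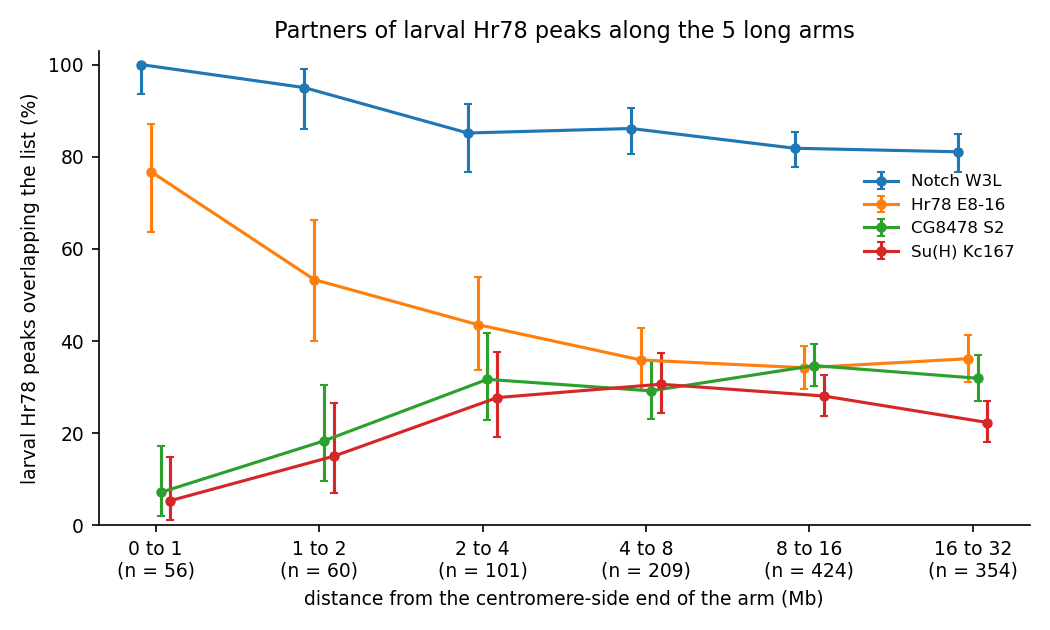
Share of larval Hr78 peaks that overlap 4 lists (%, with 95% Clopper-Pearson intervals) against the distance in Mb from the centromere-side end of the 5 long arms; n is the number of larval Hr78 peaks in a bin. In the first Mb embryonic Hr78 stands at 76.8% and CG8478 at 7.14%, and beyond 4 Mb both lie between 29.2 and 36.2%.

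A further 39 peaks (3.03%, 2.16 to 4.12) lay off the arms, 38 of them on the heterochromatic sequences 2LHet, 2RHet, 3LHet, 3RHet and XHet and 1 on Uextra, beside 2.13% of the peaks of the other lists. The share was 9.22% in Stat92E, 5.88% in embryonic Hr78 and 4.24% in Lola. Their median score was 9.96, and 28 overlapped embryonic Hr78, 34 Notch and 11 a list of another antibody. The best, at 1396265 to 1397149 of 3LHet, scored 20.6. Sequences of this kind are rich in repeats, and the treatment of reads with several matches is not stated in the labels.

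Grouping of larval Hr78 peaks along the arms was near that of the other lists pooled. With neighbouring summits up to 10 kb apart joined, 617 peaks (49.4%) stood in groups of 2 or more, beside 52.2% of the peaks of the other lists. Among the lists this share ran from 74.2% in Su(H) to 9.84% in dm. Groups of at least 3 peaks numbered 77, where the other lists, of different lengths, had from 0 in dm to 241 in Su(H). The largest group, 9 peaks over 20.3 kb at chr2R:6305644-6325985, held Notch and Su(H) at all 9, AbdB and CG8478 at 6, Cmi at 5 and embryonic Hr78 at 4. Its best peak scored 13.8. A group of 6 at chr2R:8473995-8480037 held Notch at all 6. The second largest, 7 peaks over 16.1 kb at chr2L:11045533-11061643, differed: none held Notch or AbdB, and embryonic Hr78, Su(H), CG8478 and Cmi had 1 peak each. Its scores lay between 5.33 and 7.73. The 3 widest single peaks, chr2L:6722537-6724524 (1988 bp), chr2R:10061596-10063536 (1941 bp) and chr2R:11990568-11992182 (1615 bp), all held Notch, AbdB and embryonic Hr78.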

How the data were processed

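Peak lists were analysed as deposited. Per the submitters' processing notes, CASAVA 1.7.0, BWA and MACS2 were used with genome build dm3; their order, settings and thresholds, and the pooling of replicates, are not given in those notes or the labels. Each list deposited by the authors gives a peak's position, its fold enrichment (a linear ratio), its −log10 p and the offset of its summit from the peak start in bp, which is another deposited value. Fold and −log10 p were used within a list only. Positions were written 1-based. Read depth is unknown.

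From these, overlaps of at least 1 bp, distances between summits, groups of neighbouring peaks and places on the arms were computed on X, 2L, 2R, 3L, 3R and 4. Shares have exact Clopper-Pearson intervals, and a count of 0 was given a limit of 3 counts of the total. Antibody and stage labels were tested by exact permutation over the 15 other lists, adjusted by Benjamini-Hochberg over the 2 tests. Overlap and tests were checked on simulated data. Regions were named by rule: the 10 highest scores, the next 3 folds, the 3 widest, the 5 best without another list, with lists of other antibodies only and without embryonic Hr78, the 3 largest groups and the 3 with most regulators.

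The members, lists and tests were chosen with earlier results of these data known, so patterns already seen, such as that of the anti-GFP lists, have no independent support here. The distance from the centromere-side end was added after the data were seen; arms 2R and 3R count up from the centromere, 2L, 3L and X towards it. Sequences and genes at the peaks were not used here, as these need a dm3 genome and annotation. Calculations used Python 3.11.15, numpy 2.4.6, scipy 1.17.1, pandas 2.3.3 and matplotlib 3.10.9.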

Additional observations from a re-analysis of the deposited data

How the results depend on the processing

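Replicates and depth limit every value here: the 2 replicates share 1 list, so none could be left out, and a peak missing from a list may lie below its threshold. No paired analysis was possible because the replicates of a group have no values of their own. The direction of both label tests was the same under every alternative run. For antibody, the difference lay between 31.4 and 52.6 points (exact permutation p from 0.000333 to 0.005). For stage it lay between 15.8 and 43.2 points, and it passed the threshold with the 250 best peaks of each other list (43.2 points, exact permutation p = 0.0198), without embryonic Hr78 (28.3 points, p = 0.011) and without Stat92E (26.8 points, p = 0.0357), while without AbdB it was 15.8 points (p = 0.275). All larval lists are anti-GFP, and embryonic Hr78 and Stat92E are the only other anti-GFP lists. Leaving either out brings the stage split closer to the antibody split, so these values cannot tell stage from antibody.

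Many shares moved beyond their intervals. With a gap of up to 500 bp, another regulator was found at 94.4% of larval Hr78 peaks, embryonic Hr78 at 43.6%, AbdB at 40.8%, CG8478 at 33.4%, Cmi at 29.9%, Su(H) at 28.6%, Lola at 13.1%, br at 6.81% and prd RF12 at 4.64%. With peaks of 400 bp Notch was found at 80.4% (94.9% of the top score class) and Cmi at 22.7%. In the top-scoring 50% of every list Notch was found at 86.9%, AbdB at 33.8%, CG8478 at 24.8%, Cmi at 15.9%, Su(H) at 14.9%, br at 2.72%, insv at 2.24%, h at 2.08%, prd RF12 at 1.92% and prd RF13 at 0.321%; these partner lists hold fewer peaks by construction. Against the 250 best peaks of each other list, the shares were 49.6% for another regulator, 18.9% for embryonic Hr78, 20.9% for Notch and 16.7% for AbdB. They were 10.7% for CG8478, 6.25% for Cmi, 5.60% for Su(H), 3.04% for br, 2.24% for prd RF12 and 1.36% for cnc. The longer lists hold fewer peaks here by construction. Stat92E (187 peaks on the arms), insv (217), h (209), prd RF13 (130) and dm (61) are shorter than 250 and entered whole. The top-scoring 50% of the list held 20 groups of 3 or more peaks. Within 1 Mb of the centromere-side end lay 4.48%, within 3 Mb 12.8%, and within 2 Mb 12.2% of the top-scoring 50%, beside 2.59%, 9.68% and 6.17% of the other lists; these 3 settings, and those of the score classes without arm 4 or at 400 bp, were chosen after the data were seen.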

Other observations

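The repressor h, mapped in Kc167 cells with its own antibody, had its larger shares near the centromeres and on arm 4. Of the h list itself, 13.9% of peaks lay within 2 Mb of a centromere-side end and 5.26% on arm 4. It was found at 15.5% of the larval Hr78 peaks within 2 Mb of a centromere-side end (9.46 to 23.4) and at 17.8% of those on arm 4 (8.00 to 32.1), against 1.56% of the remaining 1088 (0.913 to 2.49). CG8478, Cmi and Su(H) had the higher share at the remaining peaks, and br was found at 6.03%, 4.44% and 4.50% of the same 3 sets. The lists of CG8478, Cmi and Su(H) had smaller shares of their own peaks in both places than h. At the 43 larval Hr78 peaks with h, summits lay a median of 28 bp apart.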
